A study of Mus musculus with 3 samples.

Results

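Cardiac fibroblasts were a minor population among cells sorted from young mouse hearts for the leukocyte protein CD45 and the macrophage protein F4/80. They were chosen by their RNA. Within the study's limits of 500 to 30000 UMIs (unique molecular identifiers, which count captured RNA molecules), 500 to 5000 genes and under 10% mitochondrial UMIs, a cell was kept if it held a UMI of at least 4 of the 8 genes Dcn, Lum, Smoc2, Pdgfra, Clec3b, Sfrp1, Fbln1 and Cthrc1 and if C1qa, C1qb and C1qc together were under 0.3% of its UMIs. This kept 400 of 10550 cells, of which 70 were from the sham_vehicle library, 189 from the MI_vehicle library and 141 from the MI_SB225002 library. The study sequenced 1 library for each of these 3 conditions. All mice were C57BL/6 and had surgery at postnatal day 10, with hearts taken 3 days later at day 13. The first group had sham surgery and vehicle, the second myocardial infarction (MI, by tying off the left anterior descending coronary artery) and vehicle, and the third MI and SB225002, a small molecule that blocks the chemokine receptor CXCR2. Per the study's methods, the tissue of several hearts was pooled and, after MI, taken from the infarct and border zones, so the libraries have no replicate and no test between conditions was possible. With 1 library per condition, a difference between conditions and one between libraries cannot be told apart. The libraries are called sham, MI and SB225002 here, the last 2 together the infarct libraries, and values in a row of 3 follow that order.

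Cardiac fibroblasts make and renew the collagen network that holds heart muscle together. After an infarct they divide, secrete new matrix and matricellular proteins such as periostin, and some turn into myofibroblasts, which carry smooth muscle actin (Acta2) in contractile fibers and draw the wound together. Resting fibroblasts are marked by the transcription factor Tcf21 and by genes such as Gsn and Dpep1.

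Fibroblasts were 2.98% (70 of 2352, exact 95% binomial interval 2.33 to 3.75%), 5.47% (189 of 3454, 4.74 to 6.28%) and 2.97% (141 of 4744, 2.51 to 3.50%) of the cells within the limits. These are shares of cells that passed a gate for macrophages, not of heart tissue, and all intervals given here cover counting error only. The genes of the sorted proteins were nearly absent: Ptprc (CD45) had a UMI in 3, 10 and 6 fibroblasts and Adgre1 (F4/80) in 5, 12 and 3, against 511, 519.7 and 433 CPM (UMIs of the gene per 1000000 UMIs) of Adgre1 in the C1q-positive macrophages of the same libraries. Outside the 8 genes of the rule, collagen 3 (Col3a1) had a UMI in 70, 189 and 141 cells and collagen 1 (Col1a1) in 70, 189 and 140, so the label held for the cells chosen. Fibroblast UMIs summed to 544702, 1422987 and 1182313, and the median fibroblast had 7087, 6240 and 7713. Among the abundant transcripts were Gm42418 at 19199.5, 21912 and 22276 CPM, Col3a1 at 12480.2, 13082 and 13895 CPM, the calcification inhibitor Mgp at 7509, 12589 and 9536 CPM, Col1a1 at 7593, 9318 and 11044 CPM and the collagen-binding protein Sparc at 7496, 9659 and 11867 CPM. Gm42418 lies over ribosomal RNA sequence and was at 16639.8, 22407 and 17246 CPM in macrophages. Xist, the RNA that silences an X chromosome in female cells, was at 488, 308 and 268 CPM in 28, 65 and 46 fibroblasts.

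The rule's own genes are given as a description. Cthrc1, a secreted protein of activated fibroblasts, stood at 99.1, 478 and 971 CPM, and Clec3b (tetranectin) ran the other way at 901, 379 and 274 CPM. The proteoglycan decorin (Dcn) was at 8546, 6311 and 5149 CPM, lumican (Lum) at 1278, 1129 and 1086 CPM and the growth factor receptor Pdgfra at 475, 374 and 233 CPM. The matrix proteins Smoc2 and Fbln1 were at 609.5, 501 and 391 CPM and 373, 471 and 439.8 CPM, and the Wnt inhibitor Sfrp1 at 312, 522 and 565 CPM. At the threshold, 4, 20 and 22 fibroblasts had exactly 4 of the 8 markers, and 6, 19 and 18 cells with low C1q had 3 and were left out. Another 5, 7 and 9 cells had at least 4 markers but C1q at or above 0.3%. Markers of other cell types were present at low levels. The 12 macrophage markers summed to 318, 549 and 354 CPM, the 8 neutrophil markers to 91.8, 161 and 193 CPM (Ly6g at 0 in every library) and the 8 cardiomyocyte markers to 138, 129 and 149 CPM. The 8 endothelial markers summed to 103, 6.32 and 90.5 CPM, with 5, 4 and 8 of them detected and 2, 0 and 4 cells holding 2 or more. The 6 monocyte markers summed to 31.2, 508 and 351 CPM, mostly Hp and Plac8 (Ly6c2 and Chil3 had at most 2 UMIs). Both Hp and Plac8 were above the macrophage level in MI. The epicardial and mesothelial list had at most 3 UMIs in any library. T and NK cell, B cell, Schwann and erythroid markers each summed to at most 17.6 CPM. Barcode names recurred between libraries: 786 names within the limits were shared by sham and MI, 842 by sham and SB225002 and 1356 by MI and SB225002. Of them 2, 1 and 0 named a fibroblast in both. Names of sham fibroblasts recurred among all MI cells 22 times and among all SB225002 cells 28 times. Names of MI fibroblasts recurred 43 times in sham and 70 times in SB225002, and those of SB225002 fibroblasts 15 times in sham and 45 times in MI. The source of this recurrence was not tested.

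The main contractile genes of myofibroblasts were lowest in sham, intermediate in MI and highest in SB225002. Acta2, smooth muscle actin (chr19:34240336-34255585, GRCm38), stood at 33.0, 200.3 and 877 CPM. Its log2 ratio was 2.60 for MI over sham (exact 95% counting interval 1.91 to 3.37), 4.73 for SB225002 over sham (4.06 to 5.49) and 2.13 for SB225002 over MI (1.94 to 2.32). Tagln (SM22, an actin-binding protein of smooth muscle, chr9:45929628-45936058) was at 27.5, 119 and 408 CPM, with a log2 ratio of SB225002 over MI of 1.77 (1.52 to 2.03). The same order held, with the log2 ratio of SB225002 over MI and its interval in parentheses, for the myosin light chain Myl9 at 34.9, 59.0 and 167 CPM (1.50, 1.12 to 1.88), for the tropomyosin Tpm2 at 55.1, 150.4 and 342 CPM (1.18, 0.94 to 1.43) and for the calponin Cnn2 at 47.7, 86.4 and 190.3 CPM (1.14, 0.82 to 1.47). These 5 were the members of the list of 20 contractile and cytoskeletal genes that were at least 2-fold higher in SB225002 than in MI with an interval without 0, among 18 measured at 50 CPM or more in either library. None was at least 2-fold lower, and the median log2 ratio of the 18 was 0.60 beside -0.04 over all 3763 genes measured. Over all genes, 0.850% were higher by this criterion in SB225002 than in MI and 1.54% lower. Some genes reach the minimum only through the library where they are high.

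**Figure D1:**
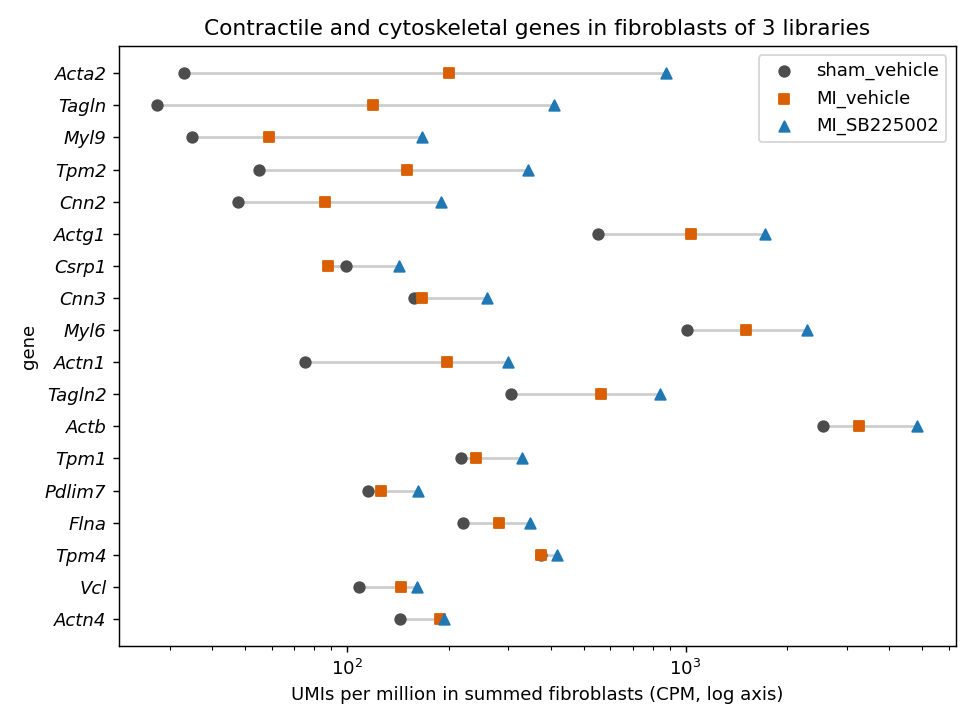
Levels of the 18 measured contractile and cytoskeletal genes in the summed fibroblasts of each library, in CPM on a log axis, ordered by the ratio of SB225002 over MI. Circles are sham, squares MI and triangles SB225002, each 1 library without an error bar. Acta2 runs from 33.0 over 200.3 to 877 CPM, and the triangle is the rightmost point for every gene shown.

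Against sham, 9 of the 18 contractile genes were at least 2-fold higher in SB225002, with a median of 1.05 beside -0.21 over all 4157 genes measured. The share over all genes was 5.36% higher and 11.6% lower. In MI over sham it was 4 of 18, namely Acta2, Tagln, Tpm2 and the actin crosslinker Actn1, with a median of 0.50 beside -0.14, where 2.91% of all 4084 genes were higher and 3.04% lower. The 3 comparisons share libraries and are not independent of each other. The ubiquitous members differed less. The cytoplasmic actins Actb and Actg1 were at 2552, 3260.0 and 4841 CPM and 551, 1039 and 1719.5 CPM, filamin (Flna) at 220.3, 282 and 348 CPM and vinculin (Vcl), a focal adhesion protein, at 108, 145 and 161 CPM. In the C1q-positive macrophages of the same libraries Acta2 was at 3.06, 8.72 and 19.4 CPM and Tagln at 0.815, 3.12 and 6.24 CPM, and in endothelial cells at 89.0, 3.07 and 37.2 CPM and 44.5, 0 and 7.71 CPM. The 8 smooth muscle and pericyte markers summed to 78.9, 54.1 and 60.1 CPM, mostly Notch3, and the pericyte gene Vtn had no UMI. The smooth muscle myosin Myh11 had 0, 1 and 4 UMIs, and the smooth muscle genes Cnn1 and Lmod1 were found in 0, 0 and 4 and 0, 0 and 3 fibroblasts, so these 3 were highest in SB225002 at few UMIs. Without the cells holding 2 mural markers, the Acta2 log2 ratio of SB225002 over MI was 2.09. The difference between sham and MI was smaller without the fibroblasts that also held UMIs of myeloid markers, which include Hp and Plac8. Without the 36, 109 and 107 cells with UMIs of 2 or more macrophage, monocyte or neutrophil markers, which were deeper than the rest (medians of 9441, 7594 and 8860 against 6390.0, 4830.0 and 4424 UMIs), the log2 ratio of MI over sham was 0.19 for Acta2, -0.03 for Tagln and -0.38 for Actn1, while that of SB225002 over MI was 3.73 for Acta2 and 3.50 for Tagln. Without the 1, 18 and 6 cells with at least 0.3% of UMIs from those markers, Acta2 stood at 2.72 and 2.11.

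Acta2 and Tagln were found in a larger share of cells in SB225002 than in sham. With every cell thinned to 2000 UMIs, which left out 0, 27 and 7 shallower fibroblasts, Acta2 was detected in 5.71% (4 of 70, 1.58 to 14.0%) of sham, 14.8% (24 of 162, 9.73 to 21.2%) of MI and 35.8% (48 of 134, 27.7 to 44.6%) of SB225002 fibroblasts. The intervals of MI and SB225002 did not overlap. The shares without thinning were 17.1, 30.7 and 55.3%, and the thinned shares in macrophages 0.498, 0.442 and 2.63%. Tagln was detected in 5.71% (4 of 70, 1.58 to 14.0%), 13% (21 of 162, 8.21 to 19.1%) and 24.6% (33 of 134, 17.6 to 32.8%) of thinned fibroblasts. Here the intervals of MI and SB225002 overlapped, as they did for Tpm2 and Myl9. The shares of some other list members did not stand in this order. The tropomyosin Tpm4 was in 57.1, 43.2 and 47.0% and Tpm1 in 35.7, 34.6 and 44.8%. The LIM protein Csrp1 was in 14.3, 12.3 and 17.2% and its relative Pdlim7 in 28.6, 19.1 and 24.6%. Further members did stand in it, among them Actg1 in 51.4, 64.8 and 85.1%, Actn1 in 7.14, 16.0 and 34.3% and Cnn2 in 5.71, 9.88 and 23.9%. The whole list took a median of 0.500% of a cell's UMIs in sham (quartiles 0.344 to 0.775%), 0.660% in MI (0.417 to 1.02%) and 0.994% in SB225002 (0.696 to 1.53%). The upper decile of cells began at 0.958, 1.78 and 2.17%.

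**Figure D2:**
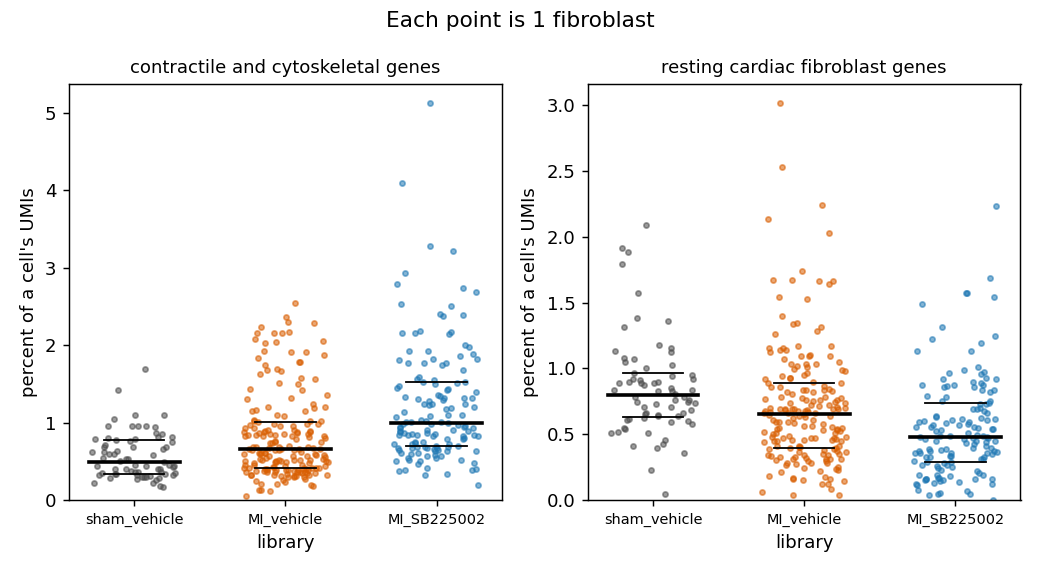
Percent of each fibroblast's UMIs in the list of contractile and cytoskeletal genes (left) and in the list of resting cardiac fibroblast genes (right), by library. Each point is 1 cell, the thick line the median and the thin lines the quartiles. The contractile medians are 0.500, 0.660 and 0.994%, and the resting medians 0.796, 0.654 and 0.483%.

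Many contractile genes carry a CArG box, the DNA element bound by serum response factor. This motif was chosen after the expression values were seen. Of 20 RefSeq promoter windows (GRCm38.p6, the build named mm10 in the labels) that matched 18 of the 20 list members (Tagln and Actb had no entry), 5 held a perfect CArG box within the 250 bases before the annotated start on either strand, beside 482 of 32851 windows of the same length in the whole table (1.47%). The 5 genes were Actg1, Cnn2, Myl6, Myl9 and Vcl. For Acta2 the window lay at an alternative start within the gene, so the bases before the gene itself were not searched. Stretches of 4 of them are shown because they place the element in the genes measured here, with the CArG box in capitals. Myl9 and Cnn2 were among the 5 genes at least 2-fold higher in SB225002 than in MI, and Actg1 and Vcl were not (0.73 and 0.15). They lie before the gene at chr2:156775243-156775362 (+ strand), chr10:79988484-79988599 (+), chr11:120348526-120348645 (-) and chr14:20929148-20929230 (+), and are written 5′ to 3′ on the gene's strand.
Myl9: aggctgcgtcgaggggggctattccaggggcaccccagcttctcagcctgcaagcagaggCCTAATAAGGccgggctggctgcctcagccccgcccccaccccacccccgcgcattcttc
Cnn2: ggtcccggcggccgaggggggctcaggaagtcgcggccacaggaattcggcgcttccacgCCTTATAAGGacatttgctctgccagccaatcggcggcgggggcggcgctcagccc
Actg1: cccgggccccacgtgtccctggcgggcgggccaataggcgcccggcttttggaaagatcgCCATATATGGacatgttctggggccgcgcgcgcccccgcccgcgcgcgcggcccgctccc
Vcl: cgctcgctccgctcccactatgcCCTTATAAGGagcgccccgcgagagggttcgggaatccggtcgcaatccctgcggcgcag
The box begins 161 bases before the start site in the Myl9 window, 56 in Cnn2, 90 in Actg1 and 227 in Vcl. A match is only a match of letters in this window, and binding was not measured in these data.

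**Figure D3:**
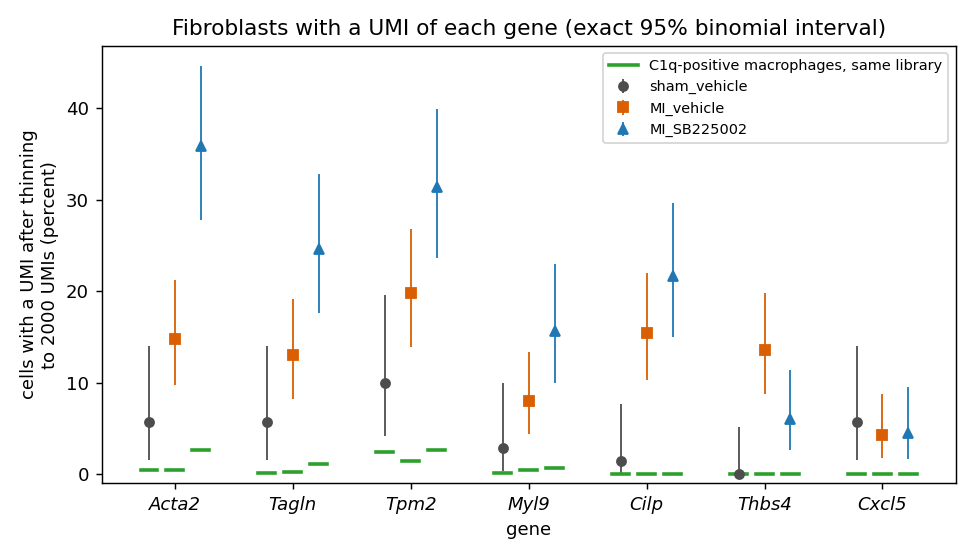
Percent of fibroblasts with at least 1 UMI of each gene after thinning every cell to 2000 UMIs, with exact 95% binomial intervals, in sham (circles), MI (squares) and SB225002 (triangles). Green bars give the same share in C1q-positive macrophages of that library. Acta2 runs from 5.71 to 14.8 and 35.8%, Thbs4 is highest in MI, and Cxcl5 is at 5.71, 4.32 and 4.48%.

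Within a library, the cells with an Acta2 UMI held more of other contractile genes and less of several resting genes in both MI and SB225002. After thinning there were 24 such cells and 138 without in MI, and 48 and 86 in SB225002. Their depth before thinning also differed, with medians of 13294 against 6624 UMIs in MI and 9858 against 7412 in SB225002. Acta2 cells held more Tagln, with a log2 ratio of 3.04 in MI and 2.54 in SB225002, and more Myl9 (2.52 and 2.73). They also held more Wisp2, a CCN family matrix protein (1.90 and 1.14), and more Ctgf, connective tissue growth factor (1.68 and 1.08). They held less of the resting genes Gsn, a gelsolin that severs actin (-1.60 and -1.45), Dpep1, a dipeptidase (-3.56 and -2.11), and Pi16, a marker of adventitial fibroblasts (-1.31 and -1.26). Collagen 1 differed little between them (0.31 and 0.36 for Col1a1). Other genes went opposite ways. Acta2 cells held more Mgp than the others in MI (0.49, 0.38 to 0.61) and less in SB225002 (-0.14, -0.26 to -0.01), and likewise tenascin C, Tnc, in MI (0.99, 0.15 to 1.77) and in SB225002 (-0.99, -1.89 to -0.17). The log2 ratio of the matrix protein Cilp was below 0 in MI (-1.38, -3.71 to 0.26) and above it in SB225002 (1.09, 0.30 to 1.88). That of elastin (Eln) was also below 0 in MI (-1.07, -1.57 to -0.60) and above it in SB225002 (0.15, -0.11 to 0.41). Meox1, a transcription factor of activated fibroblasts, had ratios of 1.05 and -0.45. These genes were picked after their values were seen, and cells of 1 library are not replicates.

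Most measured markers of activated fibroblasts were higher in both infarct libraries than in sham. Of 17 genes on this list 15 were measured, of which 9 were at least 2-fold higher and 1 lower in MI (median log2 ratio 1.15), and 10 higher and 1 lower in SB225002 (median 1.68). All genes measured gave 2.91% higher and 3.04% lower in MI, and 5.36% and 11.6% in SB225002. Periostin (Postn), the matricellular protein that marks activated fibroblasts, was abundant in all libraries at 1728, 3839.8 and 4212 CPM. Fibronectin (Fn1) was at 951, 2157 and 3580.3 CPM, with log2 ratios to sham of 1.18 (1.05 to 1.32) in MI and 1.91 (1.78 to 2.05) in SB225002. Ltbp2, a binding protein of matrix microfibrils, was at 12.9, 216 and 218 CPM and was detected in 4, 56 and 73 cells. The transcription factor Meox1 was at 33.0, 204 and 189 CPM and Runx1 at 29.4, 129 and 189 CPM, both high in MI and SB225002 alike. Ddah1, an enzyme that degrades a nitric oxide synthase inhibitor, was at 36.7, 196 and 282 CPM, and without cells holding 2 myeloid markers its log2 ratio of MI over sham was -0.49. The exception was Fap, fibroblast activation protein, which was lower at 108, 52.0 and 40.6 CPM. Acta2, Postn, Tnc and Fn1 count in this list too, beside Tgfbi, a matrix protein induced by TGF-beta, at 33.0, 70.3 and 106 CPM. In SB225002 over MI, Acta2 was the only list member at least 2-fold higher and none was lower (median 0.53).

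Several genes of resting cardiac fibroblasts were lower in SB225002 than in sham. None of 14 measured was at least 2-fold lower in MI than in sham (median -0.55), where all 14 ratios were below 0, and 6 of 14 were in SB225002 (median -0.80), where 2 were above 0. In SB225002 over MI, 1 of 13 was lower and 4 were above 0 (median -0.34). Over all genes, 3.04, 11.6 and 1.54% were lower in these 3 comparisons, with medians of -0.14, -0.21 and -0.04. Genes over 100 kb had a median of -0.65 in SB225002 over sham, and the part of gene length in these ratios was not tested. The 6 lower in SB225002 than in sham were Tcf21 at 380.0, 268 and 154 CPM, Gsn at 2702, 1782 and 1122 CPM, the lipid transporter Abca8a at 883, 448 and 236 CPM, the sodium channel Scn7a at 296, 189.7 and 93.9 CPM, Dpep1 at 286, 149.7 and 118 CPM and apolipoprotein D (Apod) at 51.4, 26.0 and 16.1 CPM. Each of the 6 stood in the order sham, MI, SB225002 from high to low. Scn7a was the one also at least 2-fold lower in SB225002 than in MI (-1.02, -1.35 to -0.69). The dermatopontin gene Dpt, likewise a matrix gene of resting fibroblasts, differed less (1039, 939.6 and 734 CPM). Per cell, the list took a median of 0.796, 0.654 and 0.483% of UMIs.

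Several matricellular and adhesive matrix genes were higher in both infarct libraries than in sham. Of 21 measured, 8 were at least 2-fold higher and 1 lower in MI (median 0.69). In SB225002 over sham it was 10 and 1 of 23 (median 0.72). Shares over all genes were 2.91% and 3.04% in MI over sham and 5.36% and 11.6% in SB225002 over sham. Thrombospondin 4 (Thbs4, chr13:92751586-92794818), a matrix protein of tendon and injured heart, was at 5.51, 347 and 88.8 CPM. In MI it was found in 27 of 189 cells and in SB225002 in 16 of 141, against 3 UMIs in 1 sham cell, and the log2 ratio of SB225002 over MI was -1.97 (-2.28 to -1.66). It was the 1 matricellular gene at least 2-fold lower in SB225002 than in MI. Cilp, cartilage intermediate layer protein (chr9:65265180-65280614), was at 7.34, 193 and 187 CPM in 4, 36 and 43 cells. Comp, cartilage oligomeric matrix protein, had no UMI in sham and 70.3 and 71.0 CPM in the infarct libraries, a log2 ratio of at least 3.67 and 3.69 with the sham count set to a floor of 3. Without cells holding 2 myeloid markers, 0, 42 and 4 Thbs4 UMIs were left, a log2 ratio of MI over sham of at least 2.93, and 1, 40 and 20 Cilp UMIs. Only 0, 3 and 4 Comp UMIs were left, at or under the floor in sham and MI. After thinning, cells with a Thbs4 UMI (22 in MI and 8 in SB225002) held more Cilp than the others (log2 3.95 and 2.90) and more Postn (1.70 and 1.15), with medians of 12639 against 6589.5 and 11524 against 7719 UMIs before thinning.

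The CCN family, small secreted proteins that link matrix to integrins, split. Ctgf was at 106, 529 and 299 CPM and Wisp2 at 25.7, 195 and 335 CPM. Wisp1, with 1 UMI in sham, was at 1.84, 37.2 and 89.7 CPM, a log2 ratio of SB225002 over MI of 1.27 (0.78 to 1.77). Cyr61 was not called in any comparison at 621, 820.1 and 638 CPM. Nov was the lower member, at 80.8, 18.3 and 20.3 CPM in 18, 17 and 11 cells. Osteopontin (Spp1) was at 3.67, 48.5 and 118 CPM, but macrophages of the same libraries held 107, 1438 and 5847 CPM, so the part of their free RNA in the fibroblast value was not tested. Tenascin C (Tnc), a matrix protein of wounds, was at 58.7, 221 and 237 CPM, high in both infarct libraries.

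**Figure D4:**
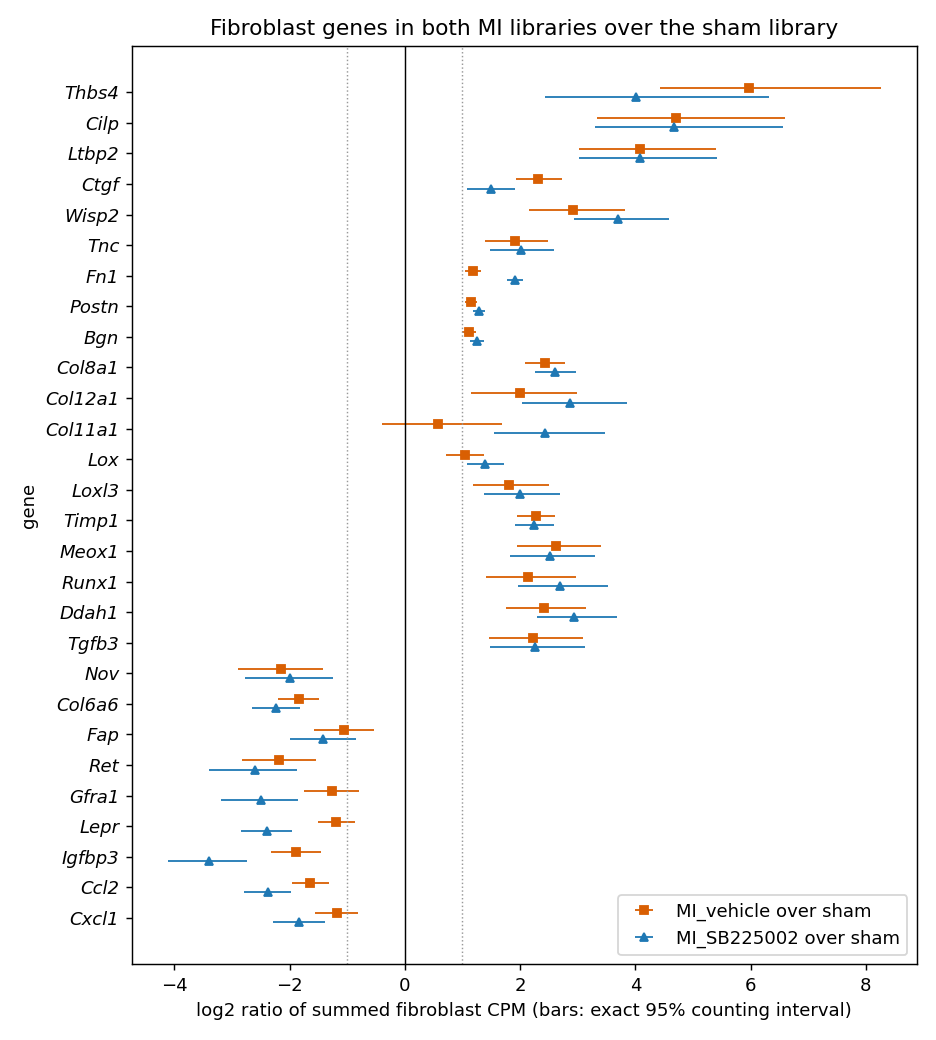
Log2 ratio of summed fibroblast CPM for named genes in MI over sham (squares) and SB225002 over sham (triangles). Bars are exact 95% counting intervals and the dotted lines mark a 2-fold difference. The upper genes, from Thbs4 to Tgfb3, lie to the right of 0 in both comparisons, with an interval across 0 for Col11a1 in MI, and the lower genes, from Nov to Cxcl1, lie to the left.

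Collagens differed by kind rather than as a group. The major fibrillar collagens, abundant in all libraries, were not called in any comparison, with Col1a1 at 7593, 9318 and 11044 CPM and Col3a1 at 12480.2, 13082 and 13895 CPM. The fibril-associated Col12a1 was at 22, 87.8 and 162 CPM, and the minor fibrillar Col11a1 at 20.2, 30.2 and 109 CPM, where the log2 ratio of SB225002 over MI was 1.85 (1.34 to 2.39). Col16a1, which sits on fibril surfaces, was at 99.1, 167 and 227 CPM, and Col5a3 was lower in SB225002 than in sham, at 341, 223 and 141 CPM. In counts, 1 of 10 measured fibrillar and associated collagens was at least 2-fold higher in MI than in sham and 3 of 11 in SB225002, with 0 and 1 lower. Shares over all genes were 2.91% and 5.36% higher and 3.04% and 11.6% lower. Among basement membrane and microfibril collagens Col8a1, a short-chain collagen of remodeling vessels and wounds, was at 138, 740.0 and 838 CPM and was the 1 of 8 higher in each infarct library over sham. Col4a1, a basement membrane chain, was at 2019, 1688 and 1004 CPM and was called lower in SB225002 than in sham (-1.01, -1.13 to -0.89), and Col4a5 at 53.2, 73.8 and 36.4 CPM was the only one lower in SB225002 than in MI, where thinning every cell to 2000 UMIs gave 0.10 in place of -1.02. Outside the lists, Col6a6 was lower in both infarct libraries at 290.1, 80.8 and 61.7 CPM.

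Some enzymes that finish collagen were higher in the infarct libraries, but the list as a whole differed little. Of 18 measured genes of collagen processing, 3 were at least 2-fold higher in MI and 4 in SB225002 than in sham, with none lower. The median log2 ratio was 0.13 in MI, with 13 of 18 above 0, and -0.03 in SB225002, with 8 of 18 above 0. Over all genes the medians were -0.14 and -0.21, with 2.91% higher and 3.04% lower in MI, and 5.36% and 11.6% in SB225002. Lysyl oxidase (Lox), which cross-links collagen, was at 176, 362 and 461 CPM and its relative Loxl3 at 42.2, 148 and 169 CPM. The prolyl hydroxylase subunit P4ha3 was at 20.2, 62.5 and 78.7 CPM and the collagen chaperone Serpinh1 at 863, 1345 and 1857 CPM. Loxl1 was level at 993, 1028 and 989 CPM. Among proteases and their inhibitors, 2 of 14 were higher and 1 lower in MI and 2 higher and 4 lower in SB225002, all against sham. The metalloproteinase inhibitor Timp1 was at 149, 717 and 703 CPM, high in MI and SB225002. The lower ones in SB225002 included the proteases Adamts12 at 246, 144 and 92.2 CPM and Adamts1 at 185, 136 and 84.6 CPM, and Fap. Mmp2 and Mmp14, gelatinase A and its membrane activator, were not called at 865, 793 and 524 CPM and 655, 900.2 and 1039 CPM. Of the small proteoglycans, biglycan (Bgn) was at 1098, 2369.7 and 2617 CPM and fibromodulin (Fmod) at 18.4, 44.3 and 51.6 CPM, while asporin (Aspn) was level at 938, 967 and 1002 CPM.

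Growth factors were called in both directions. On the growth factor list, 1 of 14 was higher and 3 lower in MI than in sham, 2 of 16 higher and 4 lower in SB225002 than in sham, and 1 of 15 higher and 2 lower in SB225002 than in MI. Shares higher and lower over all genes were 2.91 and 3.04%, 5.36 and 11.6%, and 0.850 and 1.54% in these comparisons. The list's median log2 ratio was -0.17, 0.28 and 0.14, with 6 of 14, 10 of 16 and 9 of 15 above 0. Ret, Gfra1, Lepr, Kcnn3, Scara5, Calcrl, Ackr3 and Abca6 are named as genes with the lowest ratios of all, not from a list. Genes over 100 kb, Gfra1 and Kcnn3 among them, had median log2 ratios of -0.35, -0.65 and -0.30 in the 3 comparisons. How much gene length contributed to the values of this paragraph was not tested. The receptor tyrosine kinase Ret (chr6:118151748-118197744) was at 108, 23.9 and 17.8 CPM and its co-receptor for glial-derived ligands, Gfra1, at 134, 55.5 and 23.7 CPM. Their log2 ratios of MI over sham were -2.18 (-2.83 to -1.55) and -1.27 (-1.75 to -0.79). Angiopoietin 1 (Angpt1), a ligand that steadies vessels, was at 91.8, 32.3 and 23.7 CPM. Igfbp3, a carrier of insulin-like growth factors, was at 206, 55.5 and 19.5 CPM in 25, 32 and 8 cells, with 36.6% of the sham UMIs in 1 cell, and without cells holding 2 myeloid markers its log2 ratio of MI over sham was 0.03. The leptin receptor (Lepr) was at 279, 122 and 53.3 CPM, the potassium channel Kcnn3 at 204, 84.3 and 38.9 CPM, the ferritin receptor Scara5 at 106, 28.8 and 20.3 CPM and the adrenomedullin receptor Calcrl at 171, 72.4 and 40.6 CPM. In SB225002 over MI, Igfbp3, Lepr, Gfra1, Kcnn3, the CXCL12-binding receptor Ackr3 (206, 112 and 43.1 CPM), the transporter Abca6 (114, 64.0 and 27.9 CPM) and Vegfa (69.8, 57.6 and 24.5 CPM) were at least 2-fold lower. Higher in both infarct libraries were Tgfb3 at 27.5, 129 and 131 CPM and the TWEAK receptor Tnfrsf12a at 27.5, 85.0 and 88.0 CPM. Gas6, a ligand of TAM receptors, was at 95.5, 205 and 168 CPM, and Ptn, pleiotrophin, at 395, 499 and 988 CPM was high in SB225002.

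Among all genes measured, 2.91% were at least 2-fold higher and 3.04% lower in MI over sham, and 5.36% and 11.6% in SB225002 over sham. Genes over 100 kb had a median log2 ratio of -0.65 in the latter. In the TGF-beta and BMP list, 2 of 19 measured were higher and none lower in MI over sham, and 3 were higher and 3 lower of 18 in SB225002 over sham. The lower ones included the latent TGF-beta binding protein Ltbp1 at 130.3, 68.9 and 39.8 CPM and the signal transducer Smad3 at 147, 78.7 and 47.4 CPM, and the higher ones Id3, a target of BMP signals, at 345, 485 and 755 CPM. The Wnt list had 5 members measured, with the receptor Fzd2 at 33.0, 82.9 and 116 CPM and the Wnt inhibitor Frzb at 47.7, 99.8 and 77.0 CPM the higher ones in MI. The cardiac fibroblast transcription factors had 15 measured, of which 2 were higher in each infarct library over sham, Meox1 and Runx1, and 0 in MI and 4 in SB225002 lower, among them Zeb1 at 916, 475 and 322 CPM and Tcf21. Klf4 alone of them was lower in SB225002 than in MI. Of 9 cytokine receptors measured in MI over sham, Tnfrsf12a was the only one called, and in SB225002 over sham Tnfrsf12a was higher and Lifr, a receptor subunit of the LIF family, lower at 55.1, 35.1 and 25.4 CPM of 10, while Il1r1 and Il6st were at 257, 175 and 172 CPM and 176, 162 and 222 CPM.

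The ligands of CXCR2, the receptor that SB225002 blocks, were few in fibroblasts and differed from each other. Cxcl1 was at 207, 91.4 and 58.4 CPM in 24, 46 and 25 cells, lower in both infarct libraries than in sham, with log2 ratios of -1.18 (-1.56 to -0.81) and -1.83 (-2.28 to -1.39). Without cells holding 2 myeloid markers the ratio of MI over sham was 0.13. Cxcl5 was at 23.9, 121 and 55.8 CPM, but 80 of its 172 MI UMIs were in 1 cell, the thinned shares were 5.71% (4 of 70, 1.58 to 14.0%), 4.32% (7 of 162, 1.75 to 8.70%) and 4.48% (6 of 134, 1.66 to 9.49%), and its lower level in SB225002 than in MI was not called without the highest cell of each library. Without cells holding 2 myeloid markers, 6, 1 and 0 Cxcl5 UMIs were left, with sham then highest. Cxcl5 was nearly absent from macrophages (0, 0.215 and 0.0459 CPM), and so was Cxcl1 (2.24, 5.33 and 1.29 CPM). Cxcl2 was at 18.4, 8.43 and 32.1 CPM, in 2, 12 and 6 cells, against 268, 203 and 116 CPM in macrophages. Cxcl3 and Ppbp had at most 4 UMIs in any library, and Cxcr2 itself had 0, 1 and 1 UMIs, so no ratio was formed. Cxcl1 and Cxcl5 were the 2 of 6 genes on the list, which also holds the receptor gene Cxcr2, that reached 50 CPM in a library. With a floor of 3 counts, the absence of Cxcr2 UMIs allows up to 5.51 CPM of Cxcr2 in sham fibroblasts.

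Among other chemokines and cytokines, Ccl2, which attracts monocytes, was at 330.5, 106 and 63.4 CPM in 13, 30 and 29 fibroblasts, against 909, 627 and 827 CPM in macrophages. Cxcl12, which retains stem and immune cells, was at 75.3, 136 and 228 CPM. Sums of several secreted proteins rested on 1 cell. It held 91.7% of the Cxcl10 UMIs in MI, and in SB225002 64.6% of those of Cxcl13, 75.4% of Ccl5 and 81.5% of the growth factor Nrg1, so their ratios describe single cells. On the chemokine list 1 of 5 measured was called higher and 1 lower in MI over sham, 3 and 1 of 6 in SB225002 over sham, and 2 and 1 of 7 in SB225002 over MI. All genes measured gave 2.91 and 3.04%, 5.36 and 11.6%, and 0.850 and 1.54%.

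Of 9 measured complement and acute phase genes, 4 were higher in MI than in sham and none lower, with 3 higher and 1 lower in SB225002 than in sham. Shares over all genes were 2.91% higher and 3.04% lower in MI, and 5.36% and 11.6% in SB225002. Serpina3n, a secreted protease inhibitor of the acute phase, was at 266, 546 and 228 CPM in 41, 115 and 62 cells, so that MI stood above both other libraries, and the log2 ratio of SB225002 over MI was -1.26 (-1.46 to -1.06). Complement C3 was at 127, 384 and 355 CPM, in 22, 73 and 39 cells, and without cells holding 2 myeloid markers its log2 ratio of SB225002 over sham was -1.13. Haptoglobin (Hp) was at 14.7, 325 and 182 CPM in 4, 28 and 23 cells, and Hp was at 22.6, 61.6 and 84.5 CPM in macrophages. Serum amyloid A3 (Saa3) reached 42.2, 844 and 1431 CPM, but 1 cell held 59.3% of it in MI and 88.7% in SB225002. Without cells holding 2 myeloid markers, 23, 3 and 0 Saa3 UMIs and 2, 30 and 0 Hp UMIs were left, with sham then highest for Saa3. Hp is itself among those markers, so its loss was partly set by the filter. C1ra, a protease of the complement cascade, was lower in SB225002 than in sham at 103, 62.5 and 48.2 CPM. Of 8 measured interferon-stimulated genes, 3 were higher in MI than in sham, 1 of them Cxcl10. The antiviral proteins Bst2 and Isg15 were at 80.8, 179 and 177 CPM and 16.5, 59.7 and 68.5 CPM, and the class I antigen H2-K1 at 69.8, 100.5 and 165 CPM.

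Counts over all genes set the frame. In MI over sham 119 genes were at least 2-fold higher and 124 lower, in SB225002 over sham 223 and 483, and in SB225002 over MI 32 and 58. Without the highest cell of each gene in each library, 116 and 98, 220 and 436, and 29 and 53 of these remained. With edgeR's TMM factors, which move all log2 ratios to sham up by 0.15 in MI and 0.18 in SB225002, 157 genes were higher and 82 lower in MI, and 322 and 289 in SB225002. Mt2, a metallothionein, was at 235, 606 and 199 CPM, highest in MI, where 1 cell held 32.0% of it, and without cells holding 2 myeloid markers its log2 ratio of MI over sham was -0.96. The imprinted growth regulators H19 and Mest were high in sham and SB225002 and low in MI, at 255, 93.5 and 250.4 CPM and 158, 54.8 and 116 CPM, while the imprinted cell cycle inhibitor Cdkn1c was at 154, 52.7 and 60.1 CPM, low in both infarct libraries. H19 was found in 8, 25 and 49 cells, and 1 cell held 35.3% of its sham UMIs. Thinning gave Mest a log2 ratio of MI over sham of 0.22 in place of -1.53. Without cells holding 2 endothelial markers the H19 log2 ratio of MI over sham went from -1.45 to -0.89. Gpc3, a heparan sulfate proteoglycan that binds growth factors, was at 152, 47.1 and 82.0 CPM, and the lipase inhibitor G0s2 at 261, 87.8 and 101 CPM. Fabp5, a fatty acid carrier, was at 237, 72.4 and 162 CPM, against 67.1, 234 and 687 CPM in macrophages. The neural adhesion protein Ncam1 was at 29.4, 45.7 and 101 CPM and the kinesin Kif26b at 9.18, 92.1 and 185 CPM, both highest in SB225002. Lower in MI than in sham was also Limch1, an actin and myosin regulator, at 152, 48.5 and 56.7 CPM, and lower in SB225002 than in MI were the secreted Crispld2 at 165, 178 and 80.4 CPM and the TNF-induced Tnfaip2 at 136, 114 and 50.7 CPM. Fabp4 and Ctla2a, both abundant in endothelial cells (22780.2, 18381 and 18569 CPM and 453, 691 and 655 CPM), had 42.9% and 92.0% of their SB225002 UMIs in 1 fibroblast.

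Some differences were seen in the other cells of the same library as well. Immediate-early genes, which cells switch on within minutes of a stimulus such as tissue digestion, were lower in SB225002 than in MI for 4 of 20 measured (median -0.57). Over all genes, 1.54% were lower in this comparison, with a median of -0.04. Fos was at 696, 738 and 346 CPM in fibroblasts and 796, 904 and 456 CPM in macrophages, Jun at 1305, 1162 and 514 CPM and 710.1, 676 and 367 CPM, Fosb at 441, 390.0 and 153 CPM and 121, 128 and 40.7 CPM, and Klf4 at 375, 248 and 115 CPM and 78.9, 97.2 and 44.4 CPM. The list's median was -0.62 in macrophages and -0.90 in endothelial cells. Ratios also moved with the length of the gene. In SB225002 over sham the median log2 ratio of fibroblast genes was 0.30 for genes under 10 kb, 0.05 for 10 to 30 kb, -0.34 for 30 to 100 kb and -0.65 for longer genes. In MI over sham it went from 0.15 to -0.35 in fibroblasts and from -0.06 to -0.07 in macrophages, and in SB225002 over MI from 0.18 to -0.30 and from 0.17 to -0.26. With the median of each length class subtracted, 203 genes in place of 483 were called lower in SB225002 over sham, and the Acta2 ratio of SB225002 over MI was 2.04. The median mitochondrial share of fibroblast UMIs was 4.18, 3.63 and 2.50%, and its part in this shift was not tested.

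**Figure D5:**
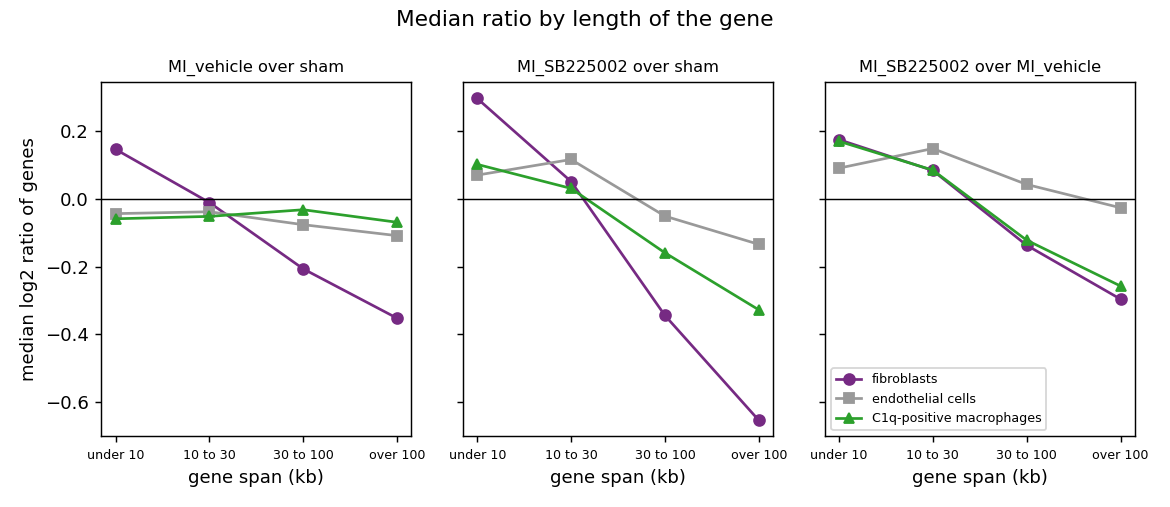
Median log2 ratio of genes in 4 classes of gene length (kb from start to end of the RefSeq gene), for fibroblasts (circles), endothelial cells (squares) and C1q-positive macrophages (triangles) in each comparison. Fibroblast medians fall with length in all 3 panels, from 0.30 to -0.65 in SB225002 over sham, and macrophage medians fall in both panels that involve SB225002.

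A smaller share of fibroblasts than of C1q-positive macrophages met a rule for dividing cells. After thinning, cells with UMIs of at least 2 of 24 G2 and mitosis genes were 1 of 70 in sham (1.43%, 0.0362 to 7.70%), 10 of 162 in MI (6.17%, 3.00 to 11.1%) and 13 of 134 in SB225002 (9.70%, 5.27 to 16.0%). All 3 intervals overlapped. Without thinning, 4 of 70 (5.71%), 21 of 189 (11.1%) and 29 of 141 (20.6%) met the rule, and by the thinned rule 28.8, 22.1 and 33.3% of C1q-positive macrophages did. Mki67, a proliferation antigen, was at 7.34, 57.6 and 49.9 CPM in 2, 13 and 19 fibroblasts, and Mki67 was at 245, 197 and 204 CPM in macrophages, and the part of their free RNA in the fibroblast counts was not tested. In MI over sham Mki67 and Prc1, a spindle protein at 0, 51.3 and 16.9 CPM in 0, 9 and 7 cells, were called higher, and in SB225002 over sham Cenpa, a centromeric histone, at 1.84, 36.5 and 71.0 CPM in 1, 8 and 19 cells. Without the dividing cells, Prc1 and Cenpa had fewer than 3 UMIs in every library. Both are among the genes that define dividing cells, so their loss was partly set by the filter. Of the S phase genes none of 20 reached 50 CPM in MI or sham, so the 4 measured in SB225002 over sham reached it only in SB225002. Of these, 2 were higher, Tyms at 31.2, 42.9 and 68.5 CPM and Dut at 25.7, 32.3 and 54.1 CPM, both enzymes of thymidine supply. Over all genes, 2.91% were higher in MI over sham, 5.36% in SB225002 over sham and 0.850% in SB225002 over MI. Pcna, the polymerase clamp, was called in SB225002 over MI at 47.7, 27.4 and 58.4 CPM, but not without the highest cell, and without dividing cells the Dut ratio was -0.09.

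Heat shock and secretion genes differed little. No heat shock gene of 8 measured was called in any comparison, with Hsp90ab1 at 859, 987 and 1158 CPM and Hspa8 at 503, 536 and 661 CPM. Of 16 genes of the unfolded protein response and secretion, Sec61b, a subunit of the translocon, was the only one called, in SB225002 over sham at 301, 509 and 674 CPM, while the chaperones Hspa5 and Hsp90b1 were at 867, 893 and 725 CPM and 731, 749 and 655 CPM. Glycolytic and hypoxia genes had 1 of 11 higher in MI and 5 higher and 2 lower in SB225002 than in sham. The enzymes Eno1, Pgk1 and Tpi1 were at 47.7, 109.6 and 134 CPM, 64.3, 114 and 167 CPM and 80.8, 155 and 203 CPM, and this list's median in macrophages was 0.72 beside 0.96 in fibroblasts for the same comparison. Of the 20 identity genes outside the rule, 1 was higher in MI and 3 higher and 4 lower in SB225002 than in sham, and none was called between SB225002 and MI. All genes measured gave 2.91% higher and 3.04% lower in MI than in sham, and 5.36% and 11.6% in SB225002. The collagen receptor Ddr2 was at 292, 168 and 123 CPM and the elastic fiber protein Mfap4 at 472, 877 and 1015 CPM.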

How the data were processed

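Single cells sorted as CD45+F4/80+7AAD- from pooled hearts were sequenced in 3 libraries, 1 per condition. For each library the authors deposited a matrix of UMI counts per gene and cell barcode, filtered to barcodes called as cells and not normalized. The build was mm10 and Seurat 4.1.0 is named in the submitters' processing notes, while the aligner and annotation are not given in the sources used here. The study's limits on UMIs, genes and mitochondrial share were applied first, and the marker rule then chose the fibroblasts. C1q-positive macrophages (at least 0.3% of UMIs from C1qa, C1qb and C1qc and fewer than 4 fibroblast and 4 endothelial markers) and endothelial cells (at least 4 of 8 markers and C1q under 0.3%) served as comparisons. The members and gene lists were chosen with earlier results of these data known. The values of some genes within the list counts are not reported here.

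Fibroblast counts were summed per library and gene and given as CPM (counts per 1000000). A log2 ratio has an exact conditional binomial 95% interval for 2 sums, which covers counting error only, and a gene with no UMI was set to 3 counts. A gene was called higher or lower at 2-fold or more with an interval without 0, among genes at 50 CPM or more in either library, leaving out the 8 markers and the C1q genes. For shares of cells, each cell was thinned to 2000 UMIs at random with a fixed seed. No test between conditions was run, since each has 1 library and cells are not replicates. No doublets were removed. A doublet score (scanpy 1.11.5, 6% highest left out), TMM factors (edgeR 4.0.16), DESeq2 1.42.0 size factors and other marker, C1q, mitochondrial and CPM limits were tried as alternatives. Python 3.11.15, numpy 2.4.6, scipy 1.17.1, pandas 2.3.3 and R 4.3.3 were used, and the scripts were tested on simulated data.

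Genes were named by a rule: up to 4 called members with the largest ratio from each list and comparison (with none called, up to 2 with the highest CPM), the 10 highest and 10 lowest called ratios of each comparison among genes at 100 CPM or more and above the macrophage level, the CXCR2 ligands, the marker genes, and the 5 genes with the highest CPM. Actb, Actg1, Ctgf, Cyr61, Dpep1, Flna, Fn1, Myl6, Nov, Pi16, Postn, Ptn, Tnc, Vcl and some genes of the same lists were named after their values were seen. Gene symbols follow the files, so that Ctgf, Nov, Wisp1 and Wisp2 stand for CCN family genes. Gene positions and promoters are from RefSeq (GRCm38.p6), in which 98.0% of genes measured in fibroblasts had a length.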

Additional observations from a re-analysis of the deposited data

Results flagged for a closer look

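In these genes the fibroblasts of a library pair differed one way and another cell type of the same libraries the opposite way, each at least 2-fold with an interval without 0 and also without the highest cell of each library. With 1 library per condition the difference between cell types was not tested, and each value is the fibroblast log2 ratio minus that of the other cell type.

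Arg1, arginase 1, was at 0, 122 and 5.92 CPM in fibroblasts, 2.39, 148 and 540.2 CPM in macrophages and 0, 0 and 108 CPM in endothelial cells. For SB225002 over MI the difference was -6.23 against macrophages and -7.92 against endothelial cells. Arg1 had a UMI in 0, 8 and 7 fibroblasts.

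Ifitm1, an interferon-induced membrane protein, was at 204, 126 and 93.9 CPM in fibroblasts, 84.5, 322 and 313 CPM in macrophages and 8.10, 199.7 and 173 CPM in endothelial cells, and for SB225002 over sham the difference was -3.0 and -5.54. Arhgap24, which inactivates Rac, was at 167, 139.8 and 71.0 CPM in fibroblasts and 38.1, 65.1 and 111 CPM in macrophages, with a difference of -2.78 for SB225002 over sham. Fabp5 was at 237, 72.4 and 162 CPM and 67.1, 234 and 687 CPM, with a difference of -3.51 for MI over sham.

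Against endothelial cells, the difference was -4.06 for Ccl2 and 3.44 for Postn in SB225002 over sham, -3.99 for Igfbp3 in MI over sham, and for H19 -3.46 in MI over sham and 2.85 in SB225002 over MI. In endothelial cells Ccl2 was at 32.4, 70.7 and 104 CPM, Postn at 138, 79.9 and 30.8 CPM, Igfbp3 at 36.4, 157 and 82.2 CPM and H19 at 194, 783 and 292 CPM, from 40, 63 and 178 cells. Mural markers summed to 927, 117 and 150.2 CPM in those cells. Neutrophil markers summed there to 117, 19616 and 5379 CPM and macrophage markers to 453, 2854 and 2056 CPM. The part of such RNA in the endothelial values, those of Arg1 and Ifitm1 included, was not tested.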

How the results depend on the processing

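No paired analysis was possible because each condition has 1 library and no replicate, which also left no replicate to leave out. Across all alternatives, 33 of 6891 ratios of named genes reversed a call, which only called ratios could do, and another 775 left their main counting interval. Of the gene counts, 101 of 126 stayed within 1.5 times, but a like count can hold other genes. Without cells holding 2 myeloid markers, 47 of 119 higher and 50 of 124 lower genes in MI over sham stayed called. For SB225002 over sham it was 124 of 223 and 190 of 483, and for SB225002 over MI 21 of 32 and 31 of 58. The contractile list's median for SB225002 over MI lay between 0.49 and 0.90 with 3 to 8 genes called. Leaving out cells with other cell types' markers, leaving out each gene's highest cell, subtracting the median by gene length and dropping Cthrc1 from the rule were chosen after seeing the data. The causes were not tested.

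Fibroblast shares were 3.98, 6.72 and 3.66% with a mitochondrial limit of 5%, and 1.45, 2.32 and 0.717% without cells holding 2 myeloid markers. Higher genes were 276, 433 and 141 (in the order MI over sham, SB225002 over sham, SB225002 over MI) at a minimum of 20 CPM and 29, 65 and 4 at 200 CPM, and lower genes 364, 848 and 201 and 23, 115 and 13. In SB225002 over MI, 196 were higher and 268 lower without cells holding 2 myeloid markers, 55 and 98 by the mean of per-cell CPM, and 122 and 193 after thinning. Lower genes in MI over sham were 194 with the mitochondrial limit of 5%, 82 with TMM factors, 209 after thinning and 63 with the median by gene length subtracted. In SB225002 over sham they were 289 with TMM factors, 285 with DESeq2 size factors and 203 by gene length.

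Dividing cells were 0% of sham with C1q under 0.1%, without cells with a Ptprc UMI, without the 6% highest doublet scores and without cells holding 2 myeloid markers or 0.3% of myeloid UMIs. A single G2 or mitosis gene gave 12.9, 12.3 and 22.4%. The MI share was 11.1% both unthinned and without cells holding 2 myeloid markers, and the SB225002 share 20.6% unthinned.

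Without cells holding 2 myeloid markers, log2 ratios of MI over sham turned for Actn1 (-0.38), Comp (-0.87, both counts at or under the floor), Cxcl1 (0.13), Cxcl10 (-1.46), Cxcl5 (-3.46), Ddah1 (-0.49), Igfbp3 (0.027), Mt2 (-0.96), Saa3 (-3.81) and Tagln (-0.026). Those of SB225002 over sham turned for C3 (-1.13), Ctla2a (-2.10), Cxcl5 (-0.68), Fabp4 (-2.68) and Saa3 (-2.62), and those of SB225002 over MI for Col4a5 (0.38), Cxcl10 (1.19), Cxcl5 (2.78) and Fabp4 (-1.13). Of these, both counts were also at or under the floor of 3 UMIs for Cxcl10 in MI over sham and, in SB225002 over MI, for Cxcl10 and Cxcl5. With 0.3% of myeloid UMIs as the limit, Cxcl10 turned for SB225002 over MI (0.60) and Cxcl13 over sham (-0.66). Without dividing cells Cenpa (-1.39) and Dut (-0.086) turned for SB225002 over sham. Prc1 turned for MI over sham (-2.80) and SB225002 over MI (1.41), and Cxcl10 for SB225002 over MI (1.41). Cenpa and Prc1 had counts under the floor and are among the genes that define dividing cells. Thinning turned Col4a5 for SB225002 over MI (0.10) and Mest for MI over sham (0.22). Nrg1 for SB225002 over MI turned with at least 5 markers (-0.92), without cells holding 2 endothelial markers (-1.0) and without the highest cell (-0.47), which also turned Cxcl10 for MI over sham (-0.39), and Fabp4 for SB225002 over sham turned without cells holding 2 endothelial markers (-0.35).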

Other observations

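In both infarct libraries, fibroblasts with a Cilp UMI held more of Thbs4, Ltbp2 and Meox1 than the rest. After thinning, 25 cells in MI and 29 in SB225002 had a Cilp UMI, with medians of 8970.0 against 6633 and 7725 against 8352 UMIs before thinning. They held more Thbs4 (log2 ratio to the other fibroblasts 4.20 and 4.86), more Ltbp2 (2.79 and 1.12) and more Meox1 (2.04 and 2.04), a transcription factor of activated fibroblasts. Their relation to Acta2 was not alike: cells with an Acta2 UMI held Cilp at a log2 ratio of -1.38 in MI, on 3 UMIs, and 1.09 in SB225002. These genes were picked after their values were seen, and cells of 1 library are not replicates.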
